A study of Mus musculus with 2 samples.

Results

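The genes for the proteins of the mitochondrial ribosome were compared between sorted mouse intestinal stem cells labelled as Srcap knockout (KO) and as wild type (WT). Members were chosen by symbol: every gene of both deposited tables whose name starts with Mrpl or Mrps followed by a number. This gave 77 of 17840 genes, 48 for the large subunit (Mrpl) and 29 for the small subunit (Mrps), and all 77 passed the filter of a mean of at least 1 FPKM (fragments per kilobase of transcript, scaled to the mapped fragments of the library). There were 2 libraries. The KO library came from Srcap flox/flox mice with Lgr5-Cre and the WT library from Srcap +/+ mice with Lgr5-Cre. The growth protocol places tamoxifen beside the flox/flox mice, and whether the +/+ mice also received it is not stated plainly. Cells of dissociated crypts were sorted by the GFP of the Lgr5 reporter and were not cultured. The Cre is driven from Lgr5, so deletion starts in Lgr5-expressing cells and their descendants. How many mice were used, and how old they were, is not stated in the labels.

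Mitochondria keep their own small genome, and the few proteins it encodes, all of them membrane subunits of the respiratory chain and the ATP synthase in mammals, are made by a dedicated ribosome. Its RNAs are transcribed from mitochondrial DNA, but every protein of it is encoded in the nucleus, made in the cytosol and imported. The large subunit joins amino acids and the small subunit reads the messenger RNA. Many of these proteins have a bacterial counterpart and others exist only in mitochondria. Intestinal stem cells at the crypt base are known for active mitochondrial respiration.

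With 1 library per genotype there are no replicates, so no test between genotypes was possible, no p-value is given, and the spread between mice is unknown. Srcap itself, the targeted gene, which encodes a chromatin remodelling ATPase, was at 11.3 FPKM in the KO library and 20.4 FPKM in the WT library. Its transcript was thus lower but still present in the KO library, and values per gene do not show which exons its reads cover. The FPKM values summed to 633837 in the KO library and 672183 in the WT library. The steps between low values put the reads assigned to genes at about 17.1 (KO) and 17.4 (WT), in units of 1000000, while the labels state 59 in the same unit as the average generated per sample. The gap was not resolved, and the counting intervals given here rest on the lower figures. The sorted samples also differed in cell type markers. Summed levels of 6 stem cell markers were 655 FPKM in the KO library and 1599 FPKM in the WT library, with Lgr5 at 2.17 FPKM (KO) and 5.9 FPKM (WT). Olfm4 made up most of both sums, at 568 FPKM (KO) and 1457 FPKM (WT). All 6 were lower in the KO library, with log2 ratios from -1.36 (Olfm4) to -0.27 (Sox9). The sums of 6 Paneth markers were 19083 FPKM (KO) and 33736 FPKM (WT), those of 6 enterocyte markers 543 FPKM (KO) and 267 FPKM (WT), those of 6 goblet markers 6179 FPKM (KO) and 3681 FPKM (WT), those of 6 stromal markers 184 FPKM (KO) and 19.9 FPKM (WT), and those of 6 myeloid markers 337 FPKM (KO) and 137 FPKM (WT). All markers were above 0 in both libraries. The part of this shift in the values below was not tested, and in bulk samples fewer cells of a type and less RNA per cell cannot be told apart.

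All 77 mitochondrial ribosomal genes were expressed, and their levels spanned a wide range. They summed to 5017 FPKM in the KO library and 5354 FPKM in the WT library, which was 0.791% of all FPKM in the KO library and 0.797% in the WT library. The median member was at 58.2 FPKM (KO) and 60.6 FPKM (WT), against a median of 11.3 FPKM (KO) and 10.7 FPKM (WT) over the 11443 genes with a mean of at least 1 FPKM. In each library 75 members lay at or above that median. The highest member exceeded the lowest 38.5-fold in the KO library and 41.2-fold in the WT library. The order of the members was nearly the same in both libraries: no member moved by more than 10 places, and log2 FPKM in KO and WT correlated across the 77 genes with Pearson's r of 0.994 and Spearman's rho of 0.992, a description over genes that share their libraries.

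The most abundant was Mrpl12, which encodes the flexible stalk protein that is present in several copies per ribosome. It was at 319 FPKM in the KO library and 321 FPKM in the WT library. The next was Mrpl52, a protein found only in mitochondrial ribosomes, at 169 FPKM (KO) and 203 FPKM (WT). Mrps21, the counterpart of bacterial S21, led the small subunit genes with 159 FPKM (KO) and 157 FPKM (WT). These 3 were followed by large subunit genes: Mrpl54 at 128 FPKM (KO) and 136 FPKM (WT), Mrpl30 at 117 FPKM (KO) and 126 FPKM (WT), and Mrpl24 at 112 FPKM (KO) and 124 FPKM (WT). At the other end, 5 members stayed below 20 FPKM in both libraries. Mrpl17, the counterpart of bacterial L17 beside the exit tunnel, was lowest with 8.29 FPKM (KO) and 7.78 FPKM (WT). Mrpl1, of the stalk through which spent tRNA leaves, was at 11.4 FPKM (KO) and 10.6 FPKM (WT). Mrps25 was at 11.0 FPKM (KO) and 11.6 FPKM (WT), and Mrpl19 at 12.4 FPKM (KO) and 13.3 FPKM (WT). Genes whose proteins meet in 1 particle thus had messenger levels that differed by more than 10-fold per length in both libraries.

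**Figure D1:**
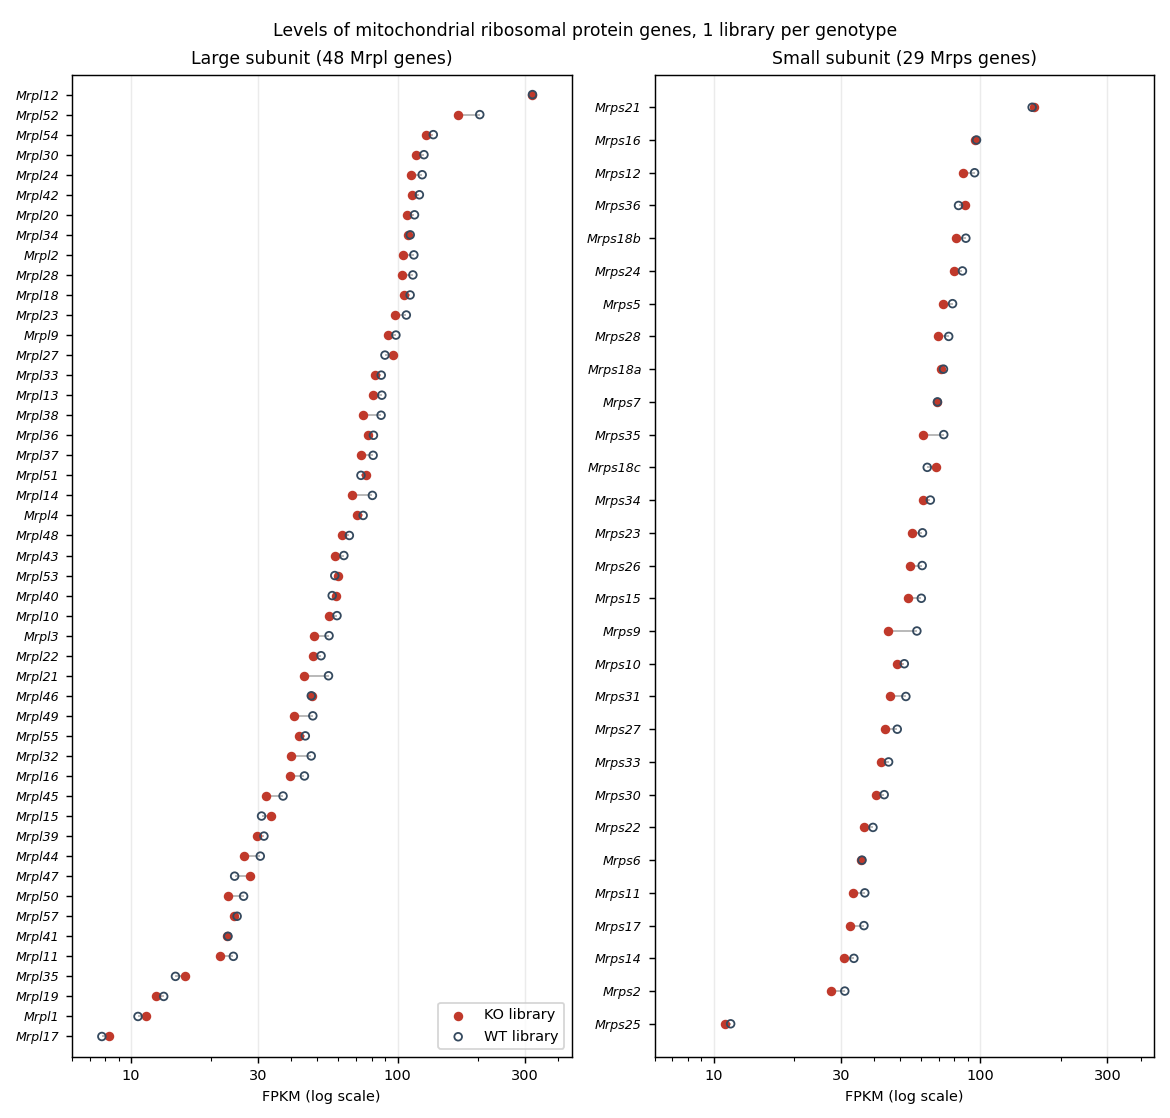
FPKM (log scale) of each mitochondrial ribosomal protein gene in the KO library (filled red) and the WT library (open), large subunit on the left and small subunit on the right, ordered by mean level, with 1 library per genotype. The filled point lies left of the open one for most genes, and the gaps are small beside the range of levels, which runs from Mrpl17 at about 8 FPKM to Mrpl12 at about 320 FPKM.

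Most members were slightly lower in the KO library, and none was far from equal. Differences are given as log2 ratios of KO to WT after adding 1 FPKM. Of the 77 members, 63 had a negative ratio, against 47.1% of all genes with a mean of at least 1 FPKM. The median ratio was -0.098, against 0.017 for all 11443 genes and -0.0050 for the 6428 genes within the members' range of mean levels. The sign depends on the scale: with both libraries rescaled to the same FPKM sum, 49 members were negative and their median was -0.015, while that of all genes was 0.10. The distance to the median of all genes hardly moved with the scale, at -0.12 as deposited and -0.12 after rescaling to the sum. It ranged from -0.12 to -0.086 over all settings tried.

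No member differed by 2-fold in either direction, where 0.419% of all genes were at least 2-fold lower and 2.53% at least 2-fold higher. At a limit of 0.32 on the log2 scale, 1 member was lower, Mrps9, and 0 were higher, where 5.79% of all genes were lower and 15.5% higher. The count of lower members moved with the scale, to 0 after rescaling to the FPKM sum, 3 after rescaling to the same median and 2 after rescaling to the same upper quartile. The log2 ratios ran from -0.35 for Mrps9 to 0.18 for Mrpl47, with an SD across the 77 genes of 0.10, against 0.41 over all genes and 0.39 over genes in the same range of levels. Within 0.2 of zero lay 68 members, or 88.3%, against 61.7% of all genes and 69.7% of those in the same range of levels.

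**Figure D2:**
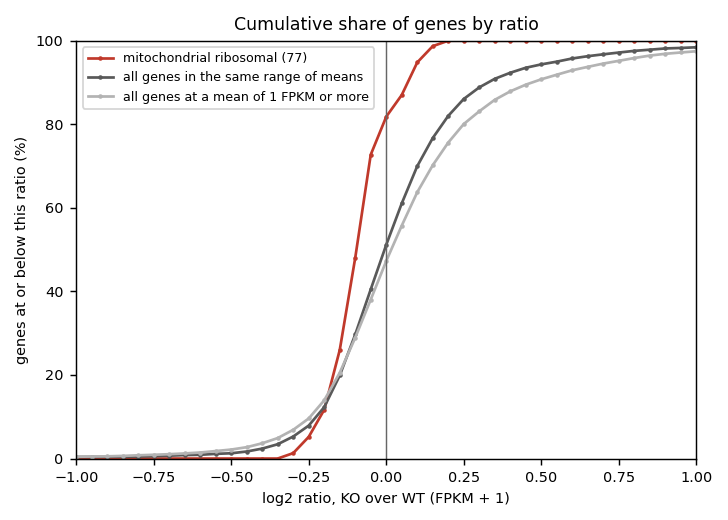
Percentage of genes at or below each log2 ratio of KO over WT (FPKM + 1), for the 77 mitochondrial ribosomal protein genes (red), for the genes in the same range of mean levels (dark grey) and for all genes with a mean of at least 1 FPKM (light grey). The red line is steeper and lies to the left at 0, where 81.8% of the members but 51.2% of genes in the same range have been reached.

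The depth limits how finely single members can be read. From the read steps and transcript lengths, members had roughly 101 to 7341 reads per library. This gives a counting error of the log2 ratio between 0.024 (Mrpl12) and 0.20 (Mrpl17), with a median of 0.062. Approximate 95% counting intervals lay wholly below the median of all genes for 38 members, spanned it for 38 and lay above it for 1, Mrpl47. Made the same way, 18.4% of 11404 genes lay below it and 21.2% above, and of 6410 genes in the members' range of mean levels 24.5% lay below and 22.4% above. Against a ratio of 0, which depends on the scale, 31 members lay below, 45 spanned it and 1 lay above, where 16.4% of the 11404 genes lay below 0 and 23% above, and of the 6410 genes 21.4% lay below and 24.6% above. Such intervals hold counting error alone and say nothing of how mice vary.

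The lowest ratio was that of Mrps9 (chr1:42851233-42905683, GRCm38), the counterpart of bacterial S9 in the head of the small subunit. It was at 45.2 FPKM in the KO library and 57.8 FPKM in the WT library, a log2 ratio of -0.35 with a counting interval from -0.46 to -0.24. Next came Mrpl21 at 44.7 FPKM (KO) and 55.1 FPKM (WT), with a ratio of -0.30, and Mrpl52, named above for its abundance, with -0.27. Mrpl14, the counterpart of L14 on the face that meets the small subunit, was at 67.3 FPKM (KO) and 80.5 FPKM (WT). Mrps35 was at 61.2 FPKM (KO) and 73.0 FPKM (WT), and Mrpl32, a zinc-binding protein that is trimmed by a protease on import, at 39.8 FPKM (KO) and 47.5 FPKM (WT). Mrpl38 was at 74.0 FPKM (KO) and 86.8 FPKM (WT) and Mrpl49 at 41.0 FPKM (KO) and 48.1 FPKM (WT). For these 8 genes the counting interval lay below 0, and the KO level was between 78.1% (Mrps9) and 85.3% (Mrpl38) of the WT level.

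The highest ratio was that of Mrpl47 (chr3:32727497-32736755, GRCm38), the counterpart of bacterial L29 at the exit of the tunnel. It was at 27.9 FPKM in the KO library and 24.5 FPKM in the WT library, a log2 ratio of 0.18 with a counting interval from 0.080 to 0.29. Mrpl15 was at 33.6 FPKM (KO) and 30.9 FPKM (WT), and Mrpl35 at 16.0 FPKM (KO) and 14.7 FPKM (WT). Mrps18c was at 68.1 FPKM (KO) and 63.3 FPKM (WT) and Mrpl27, whose bacterial counterpart reaches towards the peptidyl transferase centre, at 95.8 FPKM (KO) and 89.7 FPKM (WT). Their ratios lay between 0.094 and 0.12, and their intervals spanned 0, as did those of Mrpl1 at 0.088, Mrpl17 at 0.081 and Mrps36 at 0.077.

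**Figure D3:**
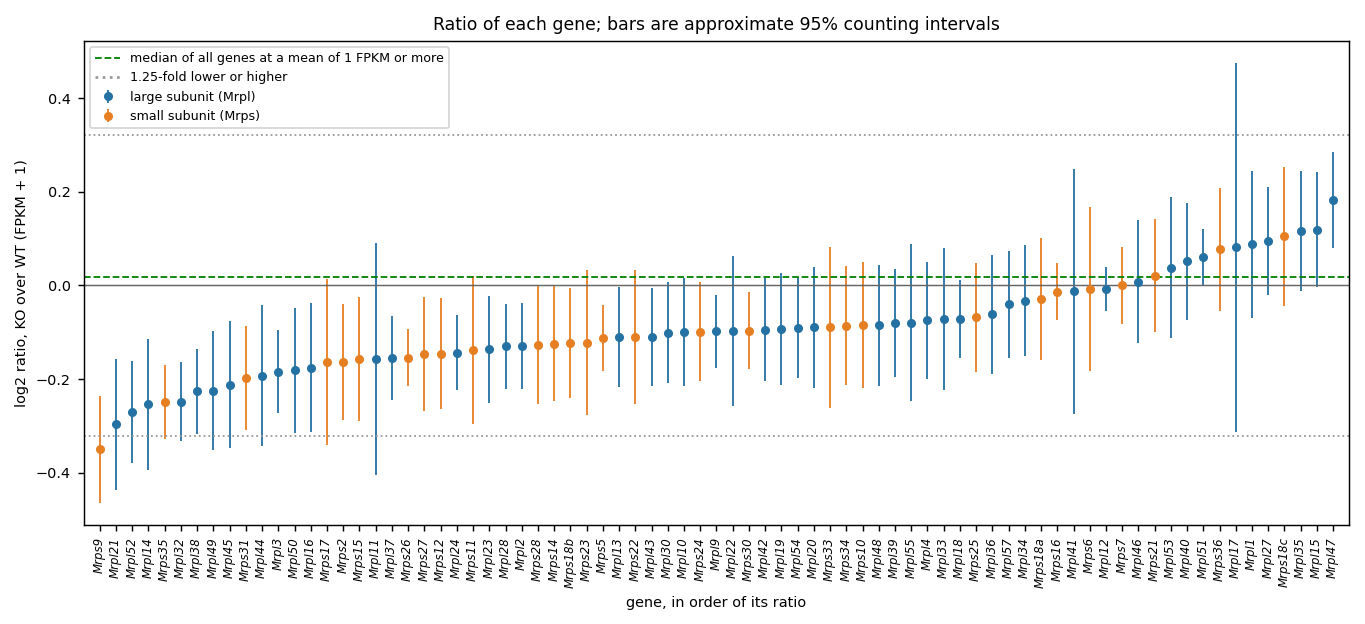
Log2 ratio of KO over WT (FPKM + 1) of each of the 77 genes in order, large subunit in blue and small subunit in orange, with approximate 95% counting intervals as bars, the median of all genes as a dashed green line and the limits of 0.32 in either direction as dotted lines. Only Mrps9 lies past a dotted line, large and small subunit genes are mixed along the order, and Mrpl47 alone has its bar above the dashed line.

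Large and small subunits were then set side by side. The 48 large subunit genes summed to 3316 FPKM (KO) and 3544 FPKM (WT), and the 29 small subunit genes to 1701 FPKM (KO) and 1810 FPKM (WT), so the ratio of large to small was 1.949 in the KO library and 1.958 in the WT library. The median large subunit gene was at 59.4 FPKM (KO) and 61.1 FPKM (WT), and the median small subunit gene at 54.3 FPKM (KO) and 60.6 FPKM (WT). The extremes lay 38.5-fold apart for the large subunit in the KO library against 14.4-fold for the small subunit. This difference rests on Mrpl12 and Mrpl17. Without them, large subunit genes ran from 11.4 FPKM (Mrpl1) to 169 FPKM (Mrpl52) in the KO library, and small subunit genes ran from 11.0 to 159 FPKM. The median log2 ratio was -0.094 for the large subunit, with 38 of 48 negative, and -0.11 for the small subunit, with 25 of 29 negative. The medians differed by 0.019, a value with no error between mice, and by 0.028 with subunits assigned by place. The SD across genes was 0.11 within the large and 0.092 within the small subunit.

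Symbols and places in the particle do not match for a few members. Mrps18a and Mrps30 carry small subunit names but sit in the large subunit, and Mrps36 is now known as a component of the oxoglutarate dehydrogenase complex. Mrps30 was at 40.7 FPKM (KO) and 43.6 FPKM (WT), and Mrps36 at 87.5 FPKM (KO) and 82.9 FPKM (WT). Other subunits do not bear an Mrp name in the tables. Among 5 of them, Gadd45gip1 in the large subunit was at 41.1 FPKM (KO) and 49.8 FPKM (WT). In the small subunit, Chchd1 was at 64.2 FPKM (KO) and 74.4 FPKM (WT), Ptcd3, an RNA-binding pentatricopeptide repeat protein, at 24.6 FPKM (KO) and 28.2 FPKM (WT), the GTP-binding Dap3 at 25.5 FPKM (KO) and 27.7 FPKM (WT) and Aurkaip1 at 96.3 FPKM (KO) and 92.8 FPKM (WT). With subunits assigned by place, the medians were -0.094 for 51 large and -0.12 for 30 small subunit genes. Not counted among the 51 is Ict1, listed under its older symbol and now also called Mrpl58, a peptidyl-tRNA hydrolase built into the large subunit. It was at 71.3 FPKM (KO) and 77.04 FPKM (WT), a ratio of -0.11.

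Members were also divided by whether the bacterial ribosome has a protein at the same place. By this naming Mrps18a and Mrps18b count as mitochondria-specific, although their sequences are related to bacterial S18. The 46 members with a bacterial counterpart had a median ratio of -0.098, with 37 negative, and the 30 mitochondria-specific ones a median of -0.10, with 26 negative. All 12 mitochondria-specific members with an Mrps symbol were negative as deposited, against 81.8% of the 77 members and 47.1% of the 11443 filtered genes. Their median was -0.12, with a range from -0.25 to -0.029. Without Mrps18a and Mrps30, which sit in the large subunit, 10 remain and the range ends at -0.068. The 16 small subunit members with a counterpart ran from -0.35 to 0.10. These signs depend on the scale, since 49 of the 77 members were negative after rescaling to the FPKM sum. The share among all filtered genes was then 33.0%.

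Within the large subunit, members were grouped by their place in the particle, with their values known. The 3 genes assigned to the stalk that receives translation factors had ratios from -0.16 to -0.0073. Mrpl11 of the stalk base was at 21.6 FPKM (KO) and 24.2 FPKM (WT), and Mrpl10, which anchors Mrpl12, at 55.2 FPKM (KO) and 59.3 FPKM (WT), so that Mrpl12 exceeded both several-fold in each library. Of 4 genes assigned to the peptidyl transferase core, all were negative as deposited with a median of -0.15. Mrpl27, whose bacterial counterpart reaches towards this centre, was counted with the central protuberance instead and had a ratio of 0.094. Of all 48 large subunit genes, 38 were negative as deposited and 28 after rescaling to the FPKM sum. The share among all filtered genes was 47.1% of 11443 as deposited and 33.0% of 12106 after rescaling to the sum. Mrpl2 was at 105 FPKM (KO) and 115 FPKM (WT), Mrpl3 at 48.6 FPKM (KO) and 55.4 FPKM (WT), Mrpl4 at 70.5 FPKM (KO) and 74.3 FPKM (WT) and Mrpl16 at 39.5 FPKM (KO) and 44.8 FPKM (WT).

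The 6 genes assigned to the exit of the peptide tunnel ran in both directions, from -0.21 for Mrpl45 to 0.18 for Mrpl47. Mrpl45, which ties the ribosome to the inner membrane, was at 32.0 FPKM (KO) and 37.2 FPKM (WT). Mrpl22 was at 48.2 FPKM (KO) and 51.7 FPKM (WT) and Mrpl23 at 98.1 FPKM (KO) and 108 FPKM (WT). The central protuberance is the knob where mammalian mitochondria use a tRNA in place of the 5S RNA. The 7 genes assigned to it here had a median of -0.071 and ran from -0.23 for Mrpl38 to 0.094 for Mrpl27. Mrpl40 was at 59.0 FPKM (KO) and 56.9 FPKM (WT) and Mrpl46 at 47.8 FPKM (KO) and 47.5 FPKM (WT). Mrpl18, the counterpart of the bacterial protein that holds 5S RNA, was at 106 FPKM (KO) and 112 FPKM (WT). Mrpl48 was at 62.1 FPKM (KO) and 66.0 FPKM (WT) and Mrpl55 at 42.6 FPKM (KO) and 45.1 FPKM (WT), so the KO level was the lower one in both.

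In the small subunit, also grouped with the values known, 7 of 8 genes of the head were negative as deposited, with a median of -0.11. The median of all 29 small subunit genes was also -0.11. Of these 29 genes, 25 were negative as deposited and 21 after rescaling to the FPKM sum. The shares among all filtered genes were 47.1% and 33.0%. Mrps31 was at 45.7 FPKM (KO) and 52.6 FPKM (WT) and Mrps14 at 30.7 FPKM (KO) and 33.6 FPKM (WT), while Mrps7, which binds the 12S RNA, was equal at 69.1 FPKM in both. Mrps10 was at 48.9 FPKM (KO) and 51.9 FPKM (WT), Mrps24 at 80.0 FPKM (KO) and 85.7 FPKM (WT) and Mrps33 at 42.5 FPKM (KO) and 45.3 FPKM (WT), all 3 slightly lower in the KO library. The 5 genes assigned to the platform had a median of -0.0078. Mrps15 was at 53.8 FPKM (KO) and 60.1 FPKM (WT) and Mrps6 at 35.8 FPKM (KO) and 36.0 FPKM (WT). Mrps12, the counterpart of the S12 protein at the decoding centre, was at 86.0 FPKM (KO) and 95.2 FPKM (WT), and Mrps5, at the entry of the messenger RNA channel, at 72.8 FPKM (KO) and 78.7 FPKM (WT). The 3 relatives of bacterial S18 were at similar levels. Mrps18a was at 71.3 FPKM (KO) and 72.8 FPKM (WT) and Mrps18b at 81.0 FPKM (KO) and 88.3 FPKM (WT), beside Mrps18c given above. Their ratios were -0.029 for Mrps18a, -0.12 for Mrps18b and 0.10 for Mrps18c. The counting intervals of all 3 overlapped.

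The members are scattered over 17 chromosomes, with at most 10 on one, chromosome 11. Promoter windows from RefSeq (GRCm38.p6), from 250 bases before to 50 bases after the start, were found for 68 members by gene ID, and not for Mrpl4, Mrpl13, Mrpl15, Mrpl19, Mrpl38, Mrpl54, Mrps28, Mrps34 and Mrps35. They were searched on both strands for the cores of factors known to act on nuclear genes for mitochondria. The ETS core CCGGAAG, bound by GABPA, was in 25 of 68 members (36.8%), against 20.8% of 9215 genes with a mean of at least 1 FPKM and 9.93% of all 27025 genes with a window. The NRF1 core GCATGCGC was in 8 members (11.8%), against 6.0% and 3.05% of these 2 sets. The YY1 core AAGATGGCG was also in 8 (11.8%), against 3.68% and 1.64%. At least 1 of the 3 was in 35 members (51.5%), against 27.9% and 13.6%. The NRF1 core was in 7 of 42 large and 1 of 26 small subunit genes. The other cores did not lean this way, with the ETS core in 14 of 42 large and 11 of 26 small subunit genes. The YY1 core was in 4 of 42 and 4 of 26. A match is a description of letters, not of binding. The median ratio with and without each core was similar. It was -0.085 for members with the ETS core and -0.10 without it, -0.097 with and -0.10 without the NRF1 core, and -0.096 with and -0.099 without the YY1 core.

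Cores of 2 kinds were found in the same window in 6 members, Mrpl17, Mrpl22, Mrpl33, Mrps18a, Mrps18b and Mrps27. The share was 8.82% of 68 members, against 2.28% of 9215 genes with a mean of at least 1 FPKM. Among all 27025 genes with a window it was 0.94%. The windows of 3 of these 6 members are given, with NRF1 and ETS cores in Mrpl22 and Mrps18b and ETS and YY1 cores in Mrps18a. Mrps9, the member with the lowest ratio, is given too, and its window holds none of the 3 cores. Sequences run 5′ to 3′ along the gene, and capitals mark the cores on either strand.
Mrpl22, chr11:58171414-58171713, plus strand: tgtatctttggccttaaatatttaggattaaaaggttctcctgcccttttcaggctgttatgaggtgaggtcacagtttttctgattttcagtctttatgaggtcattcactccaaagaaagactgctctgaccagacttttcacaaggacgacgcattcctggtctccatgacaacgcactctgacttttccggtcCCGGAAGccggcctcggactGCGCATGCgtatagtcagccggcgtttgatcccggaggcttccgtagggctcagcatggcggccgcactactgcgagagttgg
Mrps18a, chr17:46110754-46111053, plus strand: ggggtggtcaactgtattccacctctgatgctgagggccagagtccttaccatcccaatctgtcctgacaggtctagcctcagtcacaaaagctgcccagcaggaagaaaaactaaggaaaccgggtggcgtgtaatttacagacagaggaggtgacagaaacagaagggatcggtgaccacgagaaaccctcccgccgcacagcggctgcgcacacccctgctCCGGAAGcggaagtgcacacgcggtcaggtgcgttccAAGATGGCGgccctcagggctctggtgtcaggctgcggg
Mrps18b, chr17:35916391-35916690, minus strand: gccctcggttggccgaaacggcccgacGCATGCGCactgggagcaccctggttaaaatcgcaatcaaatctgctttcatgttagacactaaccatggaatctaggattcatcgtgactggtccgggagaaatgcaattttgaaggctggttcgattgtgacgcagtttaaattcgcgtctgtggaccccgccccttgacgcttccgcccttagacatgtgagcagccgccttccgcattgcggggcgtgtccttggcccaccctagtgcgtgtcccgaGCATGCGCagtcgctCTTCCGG
Mrps9, chr1:42850983-42851282, plus strand: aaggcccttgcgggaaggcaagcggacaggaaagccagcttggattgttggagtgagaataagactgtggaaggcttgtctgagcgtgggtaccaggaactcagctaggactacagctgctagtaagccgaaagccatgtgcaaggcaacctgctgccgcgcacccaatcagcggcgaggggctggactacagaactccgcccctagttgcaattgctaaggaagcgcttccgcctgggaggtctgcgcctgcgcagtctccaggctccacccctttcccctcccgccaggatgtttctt
In Mrps18b the ETS core is at the downstream end of the window in reverse orientation and the NRF1 core occurs at 2 places. The log2 ratios of these genes were -0.097 for Mrpl22, -0.029 for Mrps18a, -0.12 for Mrps18b and -0.35 for Mrps9.

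The other genes of mitochondrial gene expression were mostly lower in the KO library as deposited. After rescaling to the FPKM sum the translation factors and regulators were mostly higher, as were most of all filtered genes. Of all filtered genes, 47.1% were negative as deposited and 33.0% after this rescaling. Of 27 assembly factors of the mitochondrial ribosome, 21 were negative, and 17 after rescaling to the sum, with a deposited median of -0.12 and 2 past the limit of 0.32. These were Mettl15, a methyltransferase of the 12S RNA, at 2.98 FPKM (KO) and 4.39 FPKM (WT), and Ftsj2 (Mrm2), a methyltransferase of the 16S RNA, at 8.53 FPKM (KO) and 11.5 FPKM (WT). The GTPase gene Gtpbp10 was at 6.61 FPKM (KO) and 8.09 FPKM (WT). Of 19 translation factors, 14 were negative as deposited and 7 after rescaling to the FPKM sum, with a deposited median of -0.055 and 0 past the limit of 0.32. Gatb, of the enzyme that makes glutaminyl-tRNA, was at 12.3 FPKM (KO) and 14.6 FPKM (WT), the membrane insertase gene Oxa1l at 47.0 FPKM (KO) and 54.1 FPKM (WT) and the initiation factor gene Mtif2 at 11.8 FPKM (KO) and 10.2 FPKM (WT).

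All 17 mitochondrial aminoacyl-tRNA synthetases were negative as deposited, with a median of -0.12, but 12 of 17 after rescaling to the FPKM sum. The shares among all filtered genes were 47.1% as deposited and 33.0% after this rescaling. Yars2, the only one past the limit of 0.32, was at 19.6 FPKM (KO) and 25.4 FPKM (WT), and Pars2 at 5.9 FPKM (KO) and 7.5 FPKM (WT). Of 17 genes for transcription and upkeep of mitochondrial DNA at a mean of 1 FPKM or more, 14 were negative with a median of -0.14. After rescaling to the sum 13 of 18 were negative, 1 more having passed the filter. Peo1, the helicase Twinkle, was at 8.92 FPKM (KO) and 11.4 FPKM (WT) and was the one past the limit of 0.32, Polg2 at 4.14 FPKM (KO) and 5.26 FPKM (WT) and Tefm, a transcription elongation factor, at 6.36 FPKM (KO) and 7.87 FPKM (WT). Of 9 regulators of nuclear genes for mitochondria, 6 were negative and 0 were past the limit of 0.32. Gabpb1 was at 8.42 FPKM (KO) and 9.93 FPKM (WT), Yy1 at 26.0 FPKM (KO) and 30.1 FPKM (WT) and Myc at 36.1 FPKM (KO) and 41.1 FPKM (WT). Others were higher in the KO library. Gabpa, whose product binds the ETS core, was at 6.89 FPKM (KO) and 6.06 FPKM (WT), Esrra at 90.7 FPKM (KO) and 80.6 FPKM (WT) and Ppargc1b at 10.8 FPKM (KO) and 10.2 FPKM (WT), 3 genes added after their values were seen. After rescaling to the FPKM sum, 4 of 10 regulators were negative, 1 more having passed the filter. The medians of the translation factors and of these regulators then turned positive, at 0.023 and 0.034. Both stayed below the median of all filtered genes on that scale, 0.10.

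The mitochondrial ribosomal genes lay between the cytosolic ribosomal protein genes and the respiratory chain. All 76 cytosolic ribosomal protein genes were negative as deposited, against 47.1% of all filtered genes. The cytosolic genes had a median of -0.19 and a range from -0.27 to -0.11. Their SD across genes was 0.042, narrower than the 0.10 of the mitochondrial ribosomal genes. The 2 sets differ in level, with a median of 1487 FPKM for cytosolic and 58.2 FPKM for mitochondrial ribosomal genes in the KO library. The mitochondrial ribosomal genes had a median counting error of 0.062, and the part of counting error in the wider SD was not tested. Of 79 nuclear respiratory chain and ATP synthase genes, 44 were negative as deposited and 12 after rescaling to the FPKM sum. After rescaling to the same median 64 were negative, and 59 after rescaling to the same upper quartile. In the same order of scales, 47.1%, 33.0%, 55.5% and 51.4% of all filtered genes were negative. The median of the respiratory chain genes was -0.011 as deposited and 0.074 after rescaling to the sum. Relative to the median of all genes, the medians were -0.12 for mitochondrial ribosomal, -0.21 for cytosolic ribosomal and -0.028 for respiratory chain genes, and this order was the same under each of the 3 rescalings. Whether these lists differ beyond the spread between mice was not testable with 1 library per genotype.

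**Figure D4:**
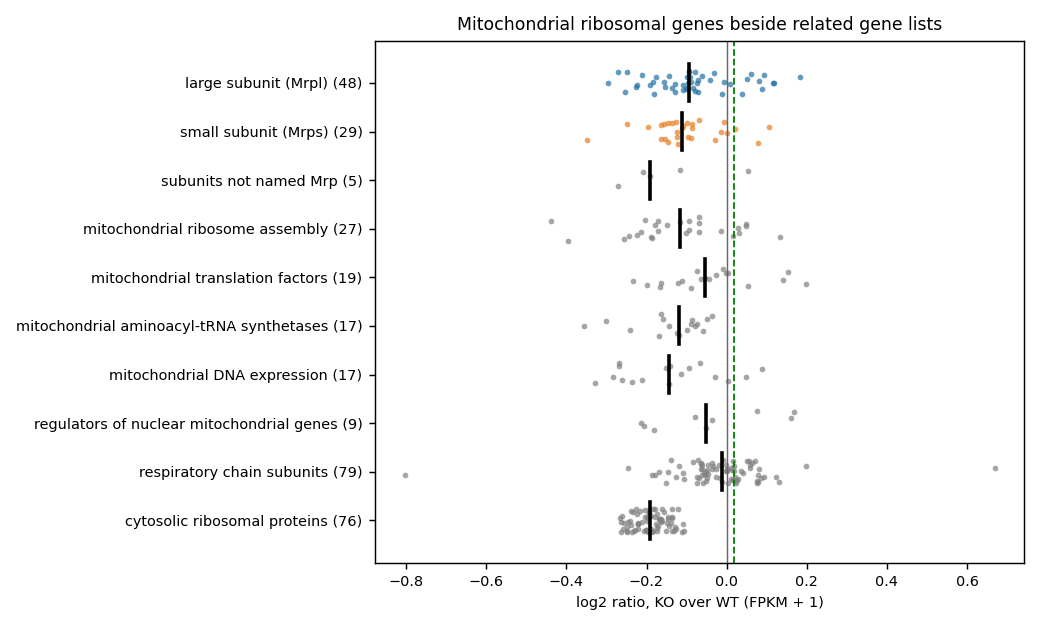
Log2 ratio of KO over WT (FPKM + 1) of single genes (points) in the large and small mitochondrial ribosomal subunits and in related lists, with the number of genes in parentheses, medians as black bars and the median of all genes as a dashed green line; points are jittered vertically. The cytosolic ribosomal genes form the tightest group, the respiratory chain genes centre near 0, and both mitochondrial subunits by symbol have medians between these. The 5 subunits not named Mrp have a median of -0.19, as low as that of the cytosolic ribosomal genes.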

How the data were processed

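Messenger RNA was measured by single-end RNA sequencing in 1 KO and 1 WT library. Values are FPKM with 2 decimals, in a separate deposited table for KO and for WT, per the file headers. The submitters' processing notes name HISAT, Bowtie2, RSEM and mm10, without roles. Neither the annotation nor the use of strand is given in the sources used here. Reads of overlapping genes can therefore be shared, and 20 members overlap another coding gene in the RefSeq table, Mrps6 with Slc5a3 most of all. No member had the same pair of values as another gene.

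Both tables were joined on the gene ID. The log2 ratio is that of KO + 1 FPKM to WT + 1 FPKM, for genes with a mean of at least 1 FPKM. A gene is called lower or higher at a log2 ratio past 0.32 in size, or at 2-fold. Genes named are Srcap, the 8 highest and the 8 lowest ratios, the 6 most and 4 least abundant members, those whose name and place differ, up to 3 per list, and role groups made after the values were seen. The members, lists and limits were chosen with earlier results of these data known. A read's worth was estimated from single-transcript genes of 200 to 2500 bases (GENCODE M21) as 0.0585 FPKM kb in the KO library (352 genes, 77.3% of values within 0.2 of a whole read) and 0.0575 in the WT library (356 genes, 74.4%). Counting intervals use the median length of protein-coding transcripts and are approximate. Code was tested on simulated data. Python 3.11.15, pandas 2.3.3 and numpy 2.4.6 were used.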

Additional observations from a re-analysis of the deposited data

How the results depend on the processing

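The median log2 ratio was -0.012 for the large and -0.029 for the small subunit once the FPKM of each library were scaled to total 1000000, and -0.15 and -0.17 after rescaling to the same median. Members lower by at least 0.32 on the log2 scale, 1 as deposited, numbered 0 after rescaling to the sum, 3 after rescaling to the median and 2 after rescaling to the upper quartile. Members with a negative ratio, 63 as deposited, numbered 49, 68 and 66 under these 3 scalings. Of all filtered genes, 47.1% were negative as deposited and 33.0%, 55.5% and 51.4% under these scalings. The medians of the large and of the small subunit stayed negative under every alternative tried. Their difference, 0.019 as deposited, ran from 0.017 after rescaling to the sum to 0.028 with subunits assigned by place. With pseudocounts of 0.1 and 5 FPKM and other filters on low values, the number of negative members stayed at 63. The median of all genes turned negative with a minimum mean of 5 FPKM (-0.0048) or 10 FPKM (-0.012). No scaling moved the median of all genes by more than 0.084. No paired analysis was possible because each genotype has 1 library, and no library could be left out for the same reason. Depth limits the reading of single members, since 38 of 77 counting intervals spanned the median of all genes.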

Other observations

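Many members start head to head with another gene. Among members with a promoter window, 24 of 68 (35.3%) had a measured gene starting on the opposite strand within 1000 bases upstream, against 13.3% of 9215 genes with a mean of at least 1 FPKM. The 23 members whose partner reached a mean of 1 FPKM had a median log2 ratio of -0.11, and their partners also one of -0.11. Of these partners, 17 of 23 were negative as deposited, against 47.1% of all genes with a mean of at least 1 FPKM. One pair consists of members on both sides, Mrpl46 and Mrps11, with starts 42 bases apart, so both genes count in both medians. Mrpl46 was at 47.8 FPKM (KO) and 47.5 FPKM (WT), and Mrps11 at 33.4 FPKM (KO) and 36.9 FPKM (WT). Several partners serve mitochondria too. Sars2, a mitochondrial synthetase gene beside Mrps12, was at 19.4 FPKM (KO) and 21.9 FPKM (WT), and Ndufb5, a complex I gene beside Mrpl47, at 149 FPKM (KO) and 157 FPKM (WT). Fau, a ribosomal protein gene beside Mrpl49, was at 1884 FPKM (KO) and 1975 FPKM (WT). In other pairs the 2 sides ran apart: Mrpl27 had a ratio of 0.094 and its partner Eme1 one of -0.39, at 7.25 FPKM (KO) and 9.8 FPKM (WT), while Mrpl2 had -0.13 and its partner Klc4 0.30, at 56.5 FPKM (KO) and 45.7 FPKM (WT). These pairs were examined after the values were seen, and no test was made.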
